A study of Drosophila melanogaster with 12 samples.

Results

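The fly insulin pathway was described through 10 genes, taken from the deposited count table by their symbols, out of 17562 genes in all. They are the insulin-like peptide genes Ilp2, Ilp3, Ilp5, Ilp6 and Ilp7, the insulin receptor gene InR, its substrate gene chico, the transcription factor gene foxo, the translation inhibitor gene Thor and the insulin-binding protein gene ImpL2. All 10 symbols were found, and all 10 passed the filter on low counts.

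The study asked about sleep disruption by TDP-43, which binds RNA and forms aggregates in motor neuron disease, and its rescue by knockdown of Atx2, the fly ataxin-2 gene. Polyadenylated RNA was sequenced from brains of male Drosophila melanogaster in 4 groups of 3 libraries. All 4 groups carried DaGS, a daughterless GeneSwitch driver that works in most tissues when flies eat RU486, and all were kept on RU486 for 6 days at 25 °C. The mCherry control group (DaGS-mCherryRNAi, BL35785) carried a hairpin against mCherry, which flies lack. The Atx2-hairpin control group (DaGS-Atx2RNAi, BL44012) carried a hairpin against Atx2. The TDP-43 mCherry group and the TDP-43 Atx2-hairpin group carried the same hairpins together with the TDP-43 line labelled 52s. Males were collected 1 to 2 days after eclosion. The driver is not restricted to neurons. Because only 1 TDP-43 line was used, effects of TDP-43 cannot be told apart from those of that line's genetic background. Each hairpin likewise came from 1 stock, so effects of Atx2 knockdown cannot be told apart from those of stock background. Words such as raised or lowered give a direction below, not a cause.

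Insulin-like peptides are hormones that bind the receptor InR. InR acts through chico and the kinase Akt, which keeps the transcription factor foxo out of the nucleus, while the TOR kinase branch acts on translation through Thor, the fly 4E-BP. In the adult brain, Ilp2, Ilp3 and Ilp5 are made by median neurosecretory neurons, the insulin-producing cells. Ilp6 is made mainly by fat body, Ilp7 by neurons of the ventral nerve cord, and ImpL2 is a secreted protein that binds insulin-like peptides.

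Libraries held 29184618 to 45104293 counts. Levels are CPM, counts relative to the total of the library after TMM scaling. Atx2 itself stood at 350.3 ± 11.4 CPM in the mCherry controls, 287 ± 18.5 in TDP-43 mCherry, 160 ± 7.17 in the Atx2-hairpin controls and 154 ± 9.29 in TDP-43 Atx2-hairpin brains (SD, n = 3). The eye colour gene w, often carried as a transgene marker, was at 9.71 to 15.1 CPM in all 6 control libraries and at 1985 to 2405 CPM in all 6 TDP-43 libraries. Neuronal markers were present in every library, at a summed 11970 to 13570 CPM over 9 genes. Fat body markers were present too, at a summed 1492 to 3221 CPM over 14 genes in control libraries and 2580 to 11060 CPM in TDP-43 libraries. Gut markers summed to 1569 CPM over 11 genes in TDP-43 mCherry library 2 and to 766 CPM in TDP-43 Atx2-hairpin library 2, against 17.5 to 76.4 CPM elsewhere.

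Per kilobase of annotated exon, Ilp2 was the highest of the 10 genes in the mCherry controls, at 293 ± 18.8 CPM per kb. Ilp5 followed at 55.4 ± 2.33 and ImpL2 at 52.6 ± 15.5 CPM per kb. Thor, Ilp3, chico and Ilp6 lay between 14.1 and 18.6 CPM per kb, InR was at 9.97 and foxo at 7.53. Ilp7 was at 0.394 ± 0.131 CPM per kb, from 2 to 19 counts per library over all 12 libraries.

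**Figure D1:**
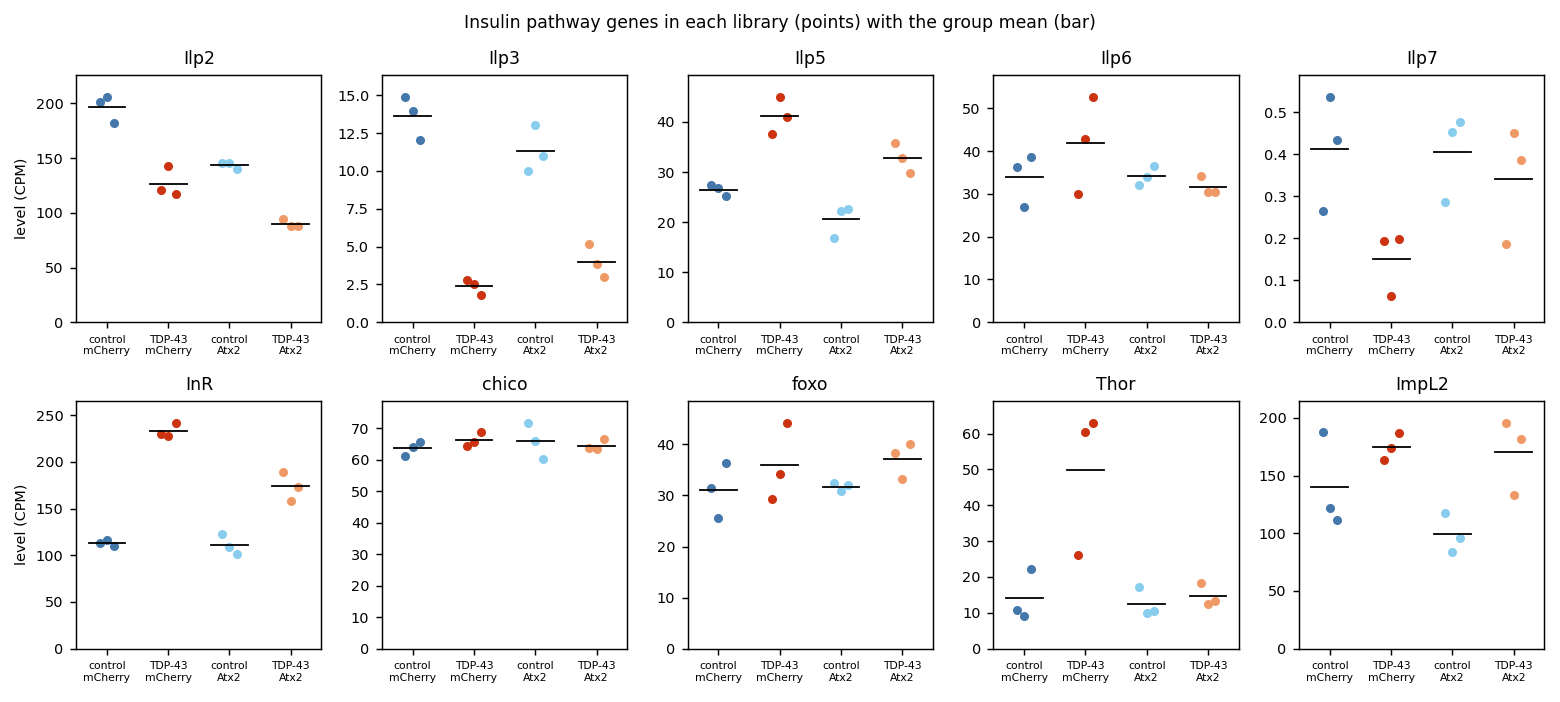
Level of each of the 10 genes in CPM (vertical axes, from 0) in the 12 libraries, by group; points are libraries and bars are group means. Ilp2 and Ilp3 are lower, and Ilp5 and InR higher, in both TDP-43 groups than in the control group with the same hairpin.

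With the mCherry hairpin, TDP-43 brains held less Ilp2 and Ilp3 and more Ilp5, InR and Thor than controls. Of the 10 genes, 5 passed an adjusted p of 0.05, 3 of them higher and 2 lower, where 37.6% of the 10738 genes tested passed, 19.2% higher and 18.3% lower. For 46.4% of the genes tested, the libraries of these groups did not overlap, so a lack of overlap was common. Fold changes are log2 ± SE, and every adjusted p comes from the quasi-likelihood test of edgeR, adjusted by Benjamini-Hochberg over all genes tested.

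Ilp2 (3L:9799698-9800440, plus strand, dm6) encodes the most abundant of the brain insulins at the RNA level in these libraries. It was at 201, 206 and 182 CPM in the mCherry controls and at 121, 143 and 117 CPM in TDP-43 mCherry brains. Every TDP-43 library lay below every control. The change was -0.63 ± 0.07 (adjusted p = 4.56e-05). In bulk brains, fewer cells of a type and less RNA per cell cannot be told apart.

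Ilp3 (3L:9801298-9802120, minus strand), an insulin made in the same neurons, showed the largest fall of the 10 genes in this comparison. Its level was 14.9, 13.96 and 12.1 CPM in the mCherry controls and 2.82, 2.54 and 1.82 CPM in TDP-43 mCherry brains. The groups stood far apart, with a fall of 2.51 ± 0.21 on the log2 scale (adjusted p = 4.78e-06).

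Ilp5 (3L:9823349-9823897, minus strand), the third insulin of these neurons, moved the other way. It was at 27.4, 26.8 and 25.2 CPM in the mCherry controls and at 37.6, 44.98 and 41.0 CPM in TDP-43 mCherry brains. The groups did not overlap, and the change was 0.64 ± 0.11 (adjusted p = 8.61e-04).

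Ilp6 (X:2331493-2334658, minus strand), the insulin of fat body, was at 36.4, 27.0 and 38.7 CPM in the mCherry controls and at 30.0, 42.9 and 52.7 CPM in TDP-43 mCherry brains. The groups overlapped, and its change of 0.30 ± 0.19 did not pass (adjusted p = 0.246). Without TDP-43 mCherry library 1, which is the lowest of its group, the change was 0.49 (adjusted p = 0.0195).

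Ilp7 (X:3667621-3668845, plus strand) had 8, 16 and 17 counts in the mCherry controls and 9, 2 and 7 counts in TDP-43 mCherry brains. In CPM these were 0.265, 0.536 and 0.433 against 0.194, 0.0619 and 0.199, and the groups did not overlap. One of these libraries is below a floor of 3 counts, and the fitted change of -1.40 ± 0.54 did not pass (adjusted p = 0.06). This floor covers counting error only.

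InR (3R:21570248-21619321, minus strand), the receptor, had the smallest adjusted p of the 10 genes. It was at 113, 116 and 109.8 CPM in the mCherry controls and at 230.3, 227 and 241 CPM in TDP-43 mCherry brains. The lowest TDP-43 library was far above the highest control, and the change was 1.04 ± 0.07 (adjusted p = 1.02e-06). Its direct substrate chico (2L:10242512-10247078, minus strand) stayed between 60.2 and 71.5 CPM in all 12 libraries, with a change of 0.06 ± 0.06 (adjusted p = 0.477). The transcription factor foxo (3R:14056945-14087978, plus strand) was at 31.5, 25.5 and 36.3 CPM in the mCherry controls and at 29.4, 34.2 and 44.1 CPM with TDP-43. Its groups overlapped, and the change of 0.21 ± 0.15 did not pass (adjusted p = 0.317).

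Thor (2L:3478434-3479612, plus strand), which binds the cap-binding protein eIF4E and lowers translation, was at 10.8, 9.11 and 22.2 CPM in the mCherry controls. In TDP-43 mCherry brains it was at 26.1, 60.6 and 62.9 CPM, with libraries 2 and 3 far above library 1. The change was 1.82 ± 0.45 (adjusted p = 0.0123). It did not pass in a fit of these 2 groups alone (1.80, adjusted p = 0.0688), nor without the pair of libraries highest in gut transcripts (1.65, adjusted p = 0.0558).

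Within each of the groups with the mCherry hairpin, the libraries high in Thor were also those high in fat body and muscle transcripts. Fat body markers summed to 2987, 7977 and 11060 CPM in TDP-43 mCherry libraries 1, 2 and 3, and muscle markers to 214, 644 and 685 CPM. In the mCherry controls, the library highest in Thor, library 3, was highest in both lists, at 3221 and 329 CPM. With TDP-43 under the mCherry hairpin, 7 of 13 fat body markers tested were higher and 1 lower. Of 12 muscle markers 4 were higher and 1 lower, beside 19.2% and 18.3% of all genes. Under the Atx2 hairpin these counts were 5 and 2, and 1 and 1, beside 12.1% and 10.4%. Under the mCherry hairpin Yp1 changed by 10.55 and Lsp1beta by -6.13, while apolpp (0.36, adjusted p = 0.513) and Apoltp (0.09, adjusted p = 0.859) did not pass. The part of fat body and muscle transcripts in the values of Thor and Ilp6 was not tested.

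**Figure D2:**
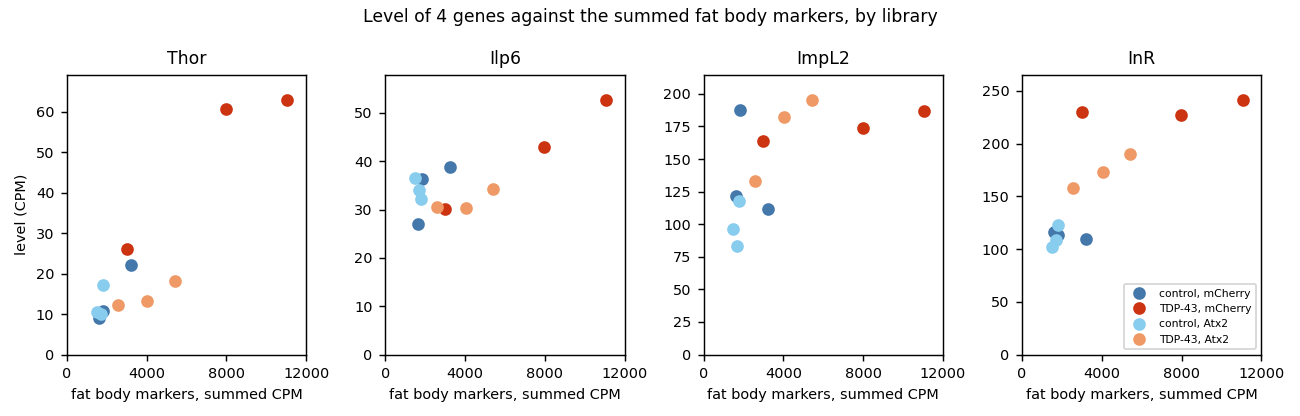
Level in CPM (vertical axes) of Thor, Ilp6, ImpL2 and InR against the summed CPM of 14 fat body marker genes (horizontal axes), with 1 point per library, coloured by group. Thor and Ilp6 are highest in the 2 TDP-43 mCherry libraries with the most fat body transcripts. InR is between 227 and 241 CPM in the 3 TDP-43 mCherry libraries. In the 3 TDP-43 Atx2-hairpin libraries Thor, ImpL2 and InR stand in the order of the fat body sum, and Ilp6 does not. Among the other groups, ImpL2 stands in that order in TDP-43 mCherry only, and InR in the Atx2-hairpin controls only.

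ImpL2 (3L:4224006-4236147, minus strand) was at 188, 122 and 112 CPM in the mCherry controls and at 164, 174 and 187 CPM in TDP-43 mCherry brains. The groups overlapped through control library 1, and the change of 0.32 ± 0.22 did not pass (adjusted p = 0.289). Without that control library it was 0.59 (adjusted p = 0.0385). The annotation places CG46460 on the same strand over 1651 of the exon bases of ImpL2, so reads of both genes may be pooled or split in its counts.

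The same contrast under the Atx2 hairpin used a separate set of 6 libraries. TDP-43 brains again held less Ilp2 and Ilp3 and more Ilp5 and InR, and here more ImpL2. Of the 10 genes, 5 passed, 3 higher and 2 lower, where 22.5% of all genes passed, 12.1% higher and 10.4% lower. The groups did not overlap for 43.8% of all genes.

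Ilp2 was at 146, 145 and 139.6 CPM in the Atx2-hairpin controls and at 94.6, 87.8 and 87.7 CPM in TDP-43 Atx2-hairpin brains. The change was -0.67 ± 0.07 (adjusted p = 4.39e-05), beside -0.63 under the mCherry hairpin. Ilp3 was at 9.99, 13.0 and 11.01 CPM in these controls and at 5.15, 3.82 and 2.99 CPM with TDP-43. That was a fall of 1.51 ± 0.21 on the log2 scale (adjusted p = 2.76e-04), beside a fall of 2.51 under the mCherry hairpin.

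Ilp5 was at 16.9, 22.2 and 22.6 CPM in the Atx2-hairpin controls and at 35.7, 32.9 and 29.8 CPM in TDP-43 Atx2-hairpin brains, a change of 0.68 ± 0.11 (adjusted p = 9.62e-04). InR was at 122, 108 and 102 CPM in the same controls and at 189.7, 158 and 173 CPM with TDP-43. Its change was 0.65 ± 0.07 (adjusted p = 6.62e-05), and no library of either gene crossed between these groups.

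ImpL2 was at 117, 83.4 and 95.9 CPM in the Atx2-hairpin controls and at 195, 133 and 182 CPM in TDP-43 Atx2-hairpin brains. The groups did not overlap, and the change was 0.78 ± 0.22 (adjusted p = 0.0348). The call was lost without either control library 2 or 3 or TDP-43 library 1 or 3, with changes of 0.67 to 0.77 and adjusted p from 0.0935 to 0.108. It was also lost without TDP-43 mCherry library 2, in a fit of these groups alone and without the filter on low counts, with changes of 0.78 to 0.79 and adjusted p from 0.0515 to 0.0581. In TDP-43 Atx2-hairpin libraries 1, 2 and 3, fat body markers summed to 5411, 2580 and 4036 CPM, against 1492 to 1794 CPM in the Atx2-hairpin controls. The ImpL2, InR and Thor levels of these TDP-43 libraries stood in the same order. Among the other groups, ImpL2 stood in the order of these markers in TDP-43 mCherry only, and InR in the Atx2-hairpin controls only. The part of fat body markers in the values of ImpL2, InR and Thor was not tested.

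The genes foxo, Thor, chico, Ilp6 and Ilp7 did not pass. Here foxo was at 32.4, 30.8 and 32.0 CPM in the controls and at 38.4, 33.2 and 40.1 CPM with TDP-43, groups that did not overlap, and its change was 0.23 ± 0.15 (adjusted p = 0.328). In a fit of these groups alone foxo passed, with an adjusted p of 0.0395, and of 0.0142 with the replicate number as a block. Thor was at 17.1, 10.1 and 10.4 CPM in the controls and at 18.3, 12.3 and 13.1 CPM with TDP-43, with overlapping groups (0.21 ± 0.44, adjusted p = 0.783).

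Among flies without TDP-43, the Atx2 hairpin went with a lower level of Ilp2 alone among the 10 genes. It fell from 201, 206 and 182 CPM to 146, 145 and 139.6 CPM, a change of -0.45 ± 0.07 (adjusted p = 0.00339). That is 1 gene of 10, lower, where 6.17% of all genes passed, 3.24% higher and 2.93% lower. For 25.7% of all genes these groups did not overlap. Ilp5 was lower in each Atx2-hairpin control than in each mCherry control, but its change of -0.37 ± 0.11 did not pass (adjusted p = 0.0794), except with DESeq2 (adjusted p = 0.0321). InR changed by -0.03 ± 0.07 (adjusted p = 0.864) and Ilp3 by -0.27 ± 0.20 (adjusted p = 0.519).

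Among TDP-43 flies, the Atx2 hairpin went with lower Ilp2, InR and Thor and with higher Ilp3. Of the 10 genes, 4 passed, 1 higher and 3 lower, where 14.04% of all genes passed, 7.68% higher and 6.36% lower. For 32.7% of all genes these groups did not overlap. This comparison shares the TDP-43 mCherry libraries with the first one, with opposite sign.

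Ilp2 fell further, from 121, 143 and 117 CPM to 94.6, 87.8 and 87.7 CPM (-0.49 ± 0.07, adjusted p = 0.00136). InR fell from 230.3, 227 and 241 CPM to 189.7, 158 and 173 CPM (-0.42 ± 0.07, adjusted p = 0.00318). Both kept their call in every alternative fit that was run.

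Ilp3 rose from 2.82, 2.54 and 1.82 CPM to 5.15, 3.82 and 2.99 CPM. These values do not overlap, and the change was 0.73 ± 0.21 (adjusted p = 0.0376). Its call was lost without TDP-43 Atx2-hairpin library 1 (0.51, adjusted p = 0.133) or TDP-43 mCherry library 3 (0.57, adjusted p = 0.12). It was also lost, with changes of 0.73 to 0.77, without TDP-43 Atx2-hairpin library 2, TDP-43 mCherry library 2 or Atx2-hairpin control library 3 (adjusted p from 0.0571 to 0.0887) and in fits of the 2 groups alone (adjusted p = 0.136, and 0.0977 with the replicate block). Without the pair of libraries highest in gut transcripts the change was 0.80, as large as with them, and did not pass (adjusted p = 0.15).

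Thor fell from 26.1, 60.6 and 62.9 CPM to 18.3, 12.3 and 13.1 CPM, a change of -1.77 ± 0.45 (adjusted p = 0.0327). With the replicate number as a block the change was -1.76 (adjusted p = 0.0577), and in the blocked fit of these 2 groups it was -1.70 (adjusted p = 0.234). It was -1.77 and did not pass in a fit of these 2 groups alone (adjusted p = 0.0713) or without the filter on low counts (adjusted p = 0.0534). The call was also lost without any 1 of the 3 TDP-43 Atx2-hairpin libraries, TDP-43 mCherry library 2 or 3, or Atx2-hairpin control library 3, with changes of -1.97 to -1.57 and adjusted p from 0.05 to 0.121, and without the libraries highest in gut transcripts (-1.51, adjusted p = 0.236). Fat body markers summed to 5411, 2580 and 4036 CPM in the TDP-43 Atx2-hairpin libraries, all below TDP-43 mCherry libraries 2 and 3. Libraries 1 and 3 of the Atx2-hairpin group were above TDP-43 mCherry library 1 (2987 CPM) in these markers, yet below it in Thor. The part of fat body transcripts in this change was not tested.

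Ilp5 was at 37.6, 44.98 and 41.0 CPM in TDP-43 mCherry brains and at 35.7, 32.9 and 29.8 CPM with the Atx2 hairpin. Its change of -0.33 ± 0.11 did not pass (adjusted p = 0.0693), while DESeq2 gave an adjusted p of 0.0442, and it was 0.0484 without TDP-43 mCherry library 1 and 0.0252 without Atx2-hairpin control library 1. Ilp6 had a change of -0.40 ± 0.19 (adjusted p = 0.2), which reached -0.60 (adjusted p = 0.019) without TDP-43 mCherry library 1.

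**Figure D3:**
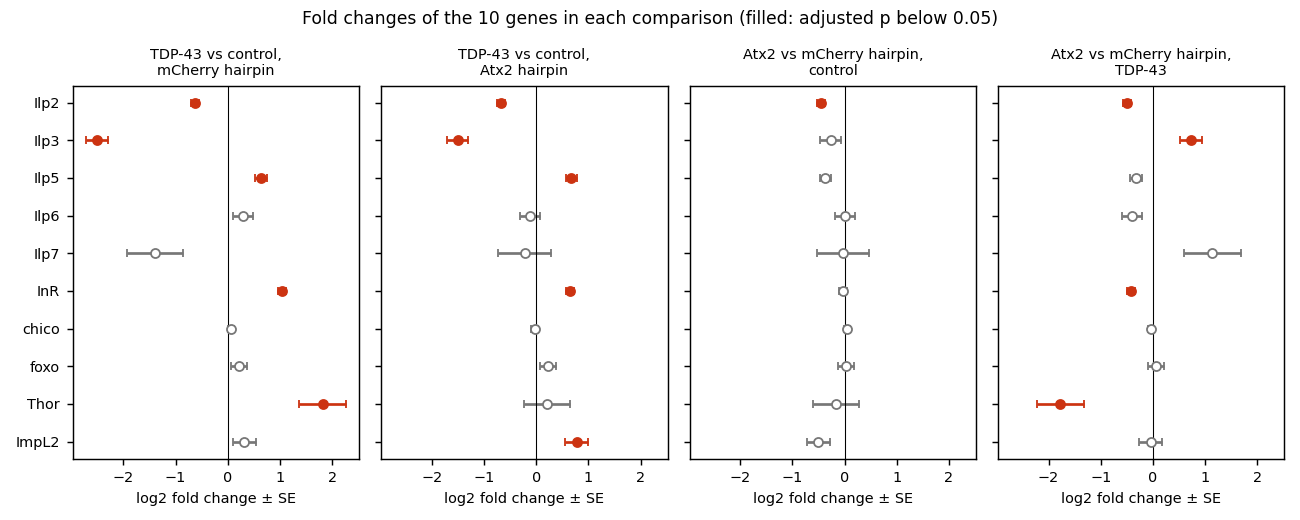
Log2 fold change ± SE (horizontal axes) of the 10 genes in 4 comparisons, with filled points for an adjusted p below 0.05. Ilp2 lies left of 0 in all 4 panels, and Ilp3 is left of 0 in both TDP-43 comparisons and right of 0 for the Atx2 hairpin among TDP-43 flies.

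TDP-43 brains with the Atx2 hairpin were also set against the mCherry controls, whose libraries enter the first comparison too. Here 3 of the 10 genes passed, 1 higher and 2 lower, where 27.98% of all genes passed, 14.6% higher and 13.4% lower. For 44.7% of all genes these groups did not overlap. Ilp2 was lower by more than in any other comparison, at -1.13 ± 0.07 (adjusted p = 5.64e-07). Ilp3 was lower too, at -1.77 ± 0.21 (adjusted p = 6.36e-05). InR was higher by 0.62 ± 0.07 (adjusted p = 7.38e-05). Ilp5 was higher in each library but did not pass (0.31 ± 0.11, adjusted p = 0.056), except without TDP-43 Atx2-hairpin library 3 (0.0474) or Atx2-hairpin control library 1 (0.0209) and in a fit of the 2 groups alone (0.0232). Thor differed by 0.05 ± 0.44 (adjusted p = 0.949).

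The order of the group means differed between genes. Ilp2 was lowest in TDP-43 Atx2-hairpin brains (90.0 ± 3.98 CPM), then TDP-43 mCherry (127 ± 13.8) and Atx2-hairpin controls (143 ± 3.38), whose libraries overlap, and highest in mCherry controls (196 ± 12.6). Ilp5 was lowest in the Atx2-hairpin controls (20.6 ± 3.18 CPM), followed by the mCherry controls (26.5 ± 1.11), the TDP-43 Atx2-hairpin group (32.8 ± 2.97) and the TDP-43 mCherry group (41.2 ± 3.72), and none of these neighbours overlapped. InR had its 2 control groups together, then TDP-43 Atx2-hairpin (174 ± 15.8 CPM) and TDP-43 mCherry (233 ± 7.36). Ilp3 was lowest in TDP-43 mCherry (2.39 ± 0.52 CPM), then TDP-43 Atx2-hairpin (3.99 ± 1.09), with the 2 control groups overlapping above them. For Ilp6, Ilp7, chico, foxo and ImpL2, all neighbours in the order overlapped.

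Whether the TDP-43 change differed between hairpins was tested as an interaction. None of the 10 genes passed in edgeR, where 0.428% of all genes, or 46, did, and 1636 genes had an unadjusted p below 0.05. InR came nearest, with an interaction of -0.39 ± 0.10 (adjusted p = 0.119), and it was the 1 gene of the 10 that DESeq2 called (adjusted p = 0.0106). Ilp3 had an interaction of 1.00 ± 0.29 (adjusted p = 0.147) and Thor one of -1.61 ± 0.62 (adjusted p = 0.269). For Ilp2 and Ilp5 the fitted interactions were close to 0, at -0.04 ± 0.10 (adjusted p = 0.891) and 0.04 ± 0.16 (adjusted p = 0.932).

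The 3 peptides of the insulin-producing cells stood in different proportions in the TDP-43 and control libraries. Of the summed CPM of Ilp2, Ilp3 and Ilp5, Ilp5 made up 10.9% to 11.5% in the mCherry controls and 23.3% to 25.6% in TDP-43 mCherry brains. With the Atx2 hairpin it was 9.79% to 13.1% in controls and 24.7% to 26.4% with TDP-43. The share of Ilp3 was 5.76% ± 0.318 in the mCherry controls, 1.41% ± 0.313 in TDP-43 mCherry, 6.45% ± 0.717 in Atx2-hairpin controls and 3.12% ± 0.66 in TDP-43 Atx2-hairpin brains (SD, n = 3). For each Ilp3 read there were 1.95 Ilp5 reads in the mCherry controls and 17.9 in TDP-43 mCherry, against 1.82 and 8.50 with the Atx2 hairpin. The sum of the 3 was 237 ± 14.9 CPM in mCherry controls, 175.4 ± 4.38 in Atx2-hairpin controls, 170.3 ± 17.1 in TDP-43 mCherry and 127 ± 7.78 in TDP-43 Atx2-hairpin brains. These ratios describe the libraries and were not tested.

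**Figure D4:**
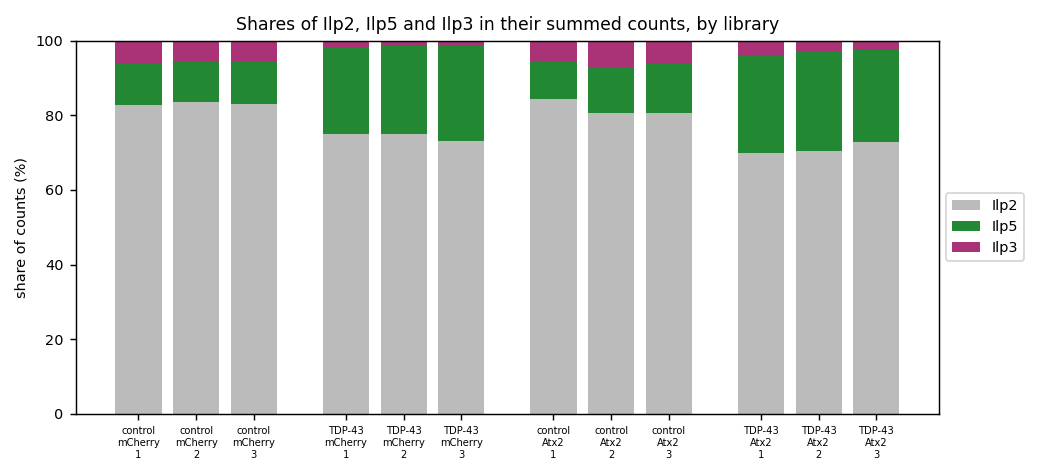
Share in percent (vertical axis) of Ilp2, Ilp5 and Ilp3 in their summed counts, with 1 stacked bar per library. Ilp5 takes 9.79% to 13.1% in the 6 control libraries and 23.3% to 26.4% in the 6 TDP-43 libraries.

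Beside the peptides, 3 markers of the insulin-producing cells were tested. Dsk, which encodes the drosulfakinin peptide of these and other neurons, was at 187 ± 17.6 CPM in mCherry controls and 168 ± 21.1 in TDP-43 mCherry, and did not pass in that comparison. The transcription factor gene dac, which marks many neurons besides, was lower with TDP-43 under the mCherry hairpin (-0.26 ± 0.06, adjusted p = 0.00856). Lkr, the leucokinin receptor gene, was at a change of 0.25 ± 0.12 there (adjusted p = 0.132) and was higher with TDP-43 under the Atx2 hairpin (0.49 ± 0.12, adjusted p = 0.0141). Of 11 other neurosecretory peptide genes tested, 8 fell with TDP-43 under the mCherry hairpin and 0 rose, where 18.3% of all genes were lower, and 6 fell and 0 rose under the Atx2 hairpin, where 10.4% were lower. Their median change was -0.37 in the first case, against 0.03 over all genes. Neuron markers moved the same way, with 4 of 9 lower and 0 higher under the mCherry hairpin and a median change of -0.15. Their sums were 13220 to 13570 CPM in mCherry controls and 11970 to 12320 CPM in TDP-43 mCherry brains. Of 11 glia markers tested, 5 were lower and 3 higher in the same comparison, with a median change of -0.16. The glia sums were 4999 to 5635 CPM in mCherry controls and 4609 to 4933 CPM in TDP-43 mCherry brains. The part of neuron and glia content in the peptide values was not tested. With the Atx2 hairpin among TDP-43 flies the median change of the peptide genes was 0.09, against -0.02 over all genes. SIFa, a peptide of a few large neurons, stood among the falls with TDP-43 at -0.96 ± 0.10 (adjusted p = 2.89e-05).

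Ilp2, Ilp3 and Ilp5 lie in one cluster on 3L together with Ilp1 and Ilp4, with no exon shared between genes. Ilp1, which is expressed mainly before adulthood, had 17 to 61 counts per library and was lower with TDP-43 under the mCherry hairpin (-0.93 ± 0.34, adjusted p = 0.0492). CG32052, whose span encloses Ilp2 and Ilp3, was lower as well (-0.59 ± 0.09, adjusted p = 4.36e-04), and under the Atx2 hairpin its change of -0.26 ± 0.09 did not pass (adjusted p = 0.0649). Further along the same stretch, Ae2 was higher by 0.40 ± 0.07 (adjusted p = 0.00136), RasGAP1 by 0.19 ± 0.05 (adjusted p = 0.00792), and I-2 was lower (-0.26 ± 0.06, adjusted p = 0.00729). Neighbours of the cluster thus moved in both directions. CG43897, whose span encloses Ilp5 on the opposite strand, did not pass (0.87 ± 0.49, adjusted p = 0.192).

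By the correlation of log2 CPM over the 12 libraries among 7602 genes, the genes most like Ilp2 were Ctr9 (r = 0.983), Act79B (0.968) and CG6073 (0.967). Most like Ilp3 were DIP-zeta (0.986), MetRS-m (0.984) and Eaat2 (0.98). Ilp5 was followed most closely by fred (0.964), Frl (0.956) and CG42663 (0.956), and InR by sff (0.979), CG4592 (0.978) and Pkn (0.977). These 12 libraries fall into 4 groups, so such an r mostly ranks genes by their group means.

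The other genes of the pathway were read from lists, described here by their counts. The TDP-43 contrast under the mCherry hairpin and the hairpin contrast among TDP-43 flies share the TDP-43 mCherry libraries, with opposite sign. No gene on these lists passed as an interaction, where 0.428% of all genes did. Of 7 proteins that bind or degrade insulin, 1 was higher and 3 were lower with TDP-43 under the mCherry hairpin, where 19.2% of all genes were higher and 18.3% lower. Nep1, a neprilysin peptidase, went from 62.6 ± 6.60 CPM to 36.4 ± 2.31 (-0.78 ± 0.07, adjusted p = 1.02e-05). Nep3 (-0.37) and Nep4 (-0.24) of the same family fell too, and the insulin-binding protein gene conv rose from 0.286 to 0.938 CPM. With the Atx2 hairpin among TDP-43 flies, Nep1 was higher (0.32 ± 0.07, adjusted p = 0.0134) and none was lower. Without the 2 libraries highest in gut transcripts, 0 of the list were called in that comparison. The relaxin-type receptor gene Lgr3 was lower with TDP-43 (-0.58 ± 0.11, adjusted p = 0.00163), and Ilp4 and Ilp8 had too few counts to be tested.

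Between the receptor and Akt, 3 of 17 genes were higher and 6 lower with TDP-43 under the mCherry hairpin, beside 19.2% and 18.3% of all genes. The adaptor gene drk went from 73.8 ± 1.49 CPM to 104.9 ± 3.63 (0.51 ± 0.05, adjusted p = 1.14e-05). The TORC2 subunit gene rictor (0.35) and the Akt kinase gene Pdk1 (0.29) were higher too. Lower genes included 14-3-3zeta, from 2509 to 1792 CPM (-0.49 ± 0.04, adjusted p = 8.59e-06), the adaptor dock (-0.36), the Ras exchange factor Sos (-0.34) and the phosphatase subunit wdb (-0.16). Akt itself (Akt1 in the table) stayed between group means of 78.1 and 88.6 CPM. Among TDP-43 flies, the Atx2 hairpin lowered drk (-0.20 ± 0.05, adjusted p = 0.0205) and raised the GSK3 gene sgg (0.18 ± 0.04, adjusted p = 0.00777). Neither was called without the 2 libraries highest in gut transcripts. With TDP-43 under the mCherry hairpin, the median change was 0.09 from receptor to Akt and -0.10 for the insulin-binding list, against 0.03 over all genes.

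On the TOR branch list, 5 of 21 genes were higher and 4 lower with TDP-43 under the mCherry hairpin, shares near the 19.2% and 18.3% of all genes. The TORC1 inhibitor gene PRAS40 went from 36.7 ± 1.94 CPM to 55.9 ± 1.49 (0.61 ± 0.06, adjusted p = 1.53e-05), and the ribosomal S6 kinase gene S6k from 116 to 161 CPM (0.48 ± 0.05, adjusted p = 1.58e-05). Myc (0.40) and the TORC1-regulated factor gene REPTOR (0.31) were also higher. Lower were chrb and scyl, the fly REDD1-type inhibitors of TOR, at -0.66 ± 0.06 (adjusted p = 1.04e-05) and -0.35 ± 0.07 (adjusted p = 0.00248), and raptor (-0.21). S6kII (-0.39), an RSK-type kinase gene counted on this list, was lower as well. Among TDP-43 flies, the Atx2 hairpin raised chrb (0.34 ± 0.06, adjusted p = 0.00437) and lowered Myc, S6k and REPTOR-BP, where 7.68% of all genes were higher and 6.36% lower. Without the 2 libraries highest in gut transcripts, 1 of the list was called higher and 1 lower.

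The 10 genes above, InR and Thor among them, were left out of the 13 tested genes reported as foxo targets. Of the 13, 6 were higher and 0 lower with TDP-43 under the mCherry hairpin, and 4 higher and 0 lower under the Atx2 hairpin. Of all genes, 19.2% were higher and 18.3% lower in the first case and 12.1% and 10.4% in the second. Atg1, the kinase that starts autophagy, went from 201 ± 7.75 to 648 ± 6.21 CPM (1.69 ± 0.05, adjusted p = 3.14e-10). The lipase gene Lip4 rose from 7.02 ± 2.20 to 23.1 ± 2.81 CPM (1.72 ± 0.25, adjusted p = 3.87e-04), and the folate enzyme gene Nmdmc (1.01) and Myc (0.40) rose too. Among TDP-43 flies the Atx2 hairpin lowered 4 and raised 0, where 6.36% of all genes were lower and 7.68% higher. They were Atg1 (-0.29 ± 0.04, adjusted p = 0.0017), Myc (-0.61 ± 0.08, adjusted p = 6.82e-04), Lip4 (-0.85 ± 0.24, adjusted p = 0.0416) and tobi. Without the 2 libraries highest in gut transcripts, 5 were higher with TDP-43 and 2 lower with the Atx2 hairpin among TDP-43 flies. Among flies without TDP-43, the Atx2 hairpin lowered 2 of the 13 and raised 0, where 2.93% of all genes were lower and 3.24% higher. They were daw (-1.07 ± 0.26, adjusted p = 0.043) and tobi. The list does not sort its genes by the direction in which foxo acts on them, so these counts do not measure foxo activity.

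The glucosidase gene tobi, named as a target of brain insulin and described in gut and fat body, was lower with the Atx2 hairpin. It was at 21.4 to 55.5 CPM in mCherry controls, 8.07 to 59.2 in TDP-43 mCherry, 2.12 to 4.28 in Atx2-hairpin controls and 0.741 to 0.973 in TDP-43 Atx2-hairpin brains. No Atx2-hairpin library reached any mCherry library. The change with the Atx2 hairpin was -5.60 ± 0.84 among TDP-43 flies (adjusted p = 0.00379) and -3.53 ± 0.74 among controls (adjusted p = 0.0285). Knockdown of Atx2 and the background of the hairpin stock cannot be told apart here.

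Of 36 genes for signals onto the insulin-producing cells, 5 were higher and 13 lower with TDP-43 under the mCherry hairpin, beside 19.2% and 18.3% of all genes, with a median change of -0.16. The lower ones included Dh44-R1 (-0.70 ± 0.07, adjusted p = 9.95e-06), a diuretic hormone receptor, and GABA-B-R2 (-0.46 ± 0.05, adjusted p = 3.81e-05), a subunit of the inhibitory GABA-B receptor. The tachykinin gene Tk (-0.57) and GABA-B-R1 (-0.27) were lower too. The TNF gene egr rose from 49.7 ± 3.97 to 122 ± 4.25 CPM (1.30 ± 0.07, adjusted p = 1.14e-07) and the receptor gene mth from 3.06 to 10.2 CPM (1.73 ± 0.20, adjusted p = 6.16e-05). The fat body signal gene fit went from 0.167 to 0.729 CPM in mCherry controls to 23.3 to 93.5 CPM in TDP-43 mCherry brains, and it is itself on the fat body marker list. Among TDP-43 flies, the Atx2 hairpin raised 5 of the 36, Octbeta1R, GABA-B-R2, Oamb and Dh44-R1 among them by 0.24 to 0.27, and lowered egr (-0.33 ± 0.07, adjusted p = 0.00862). Without the 2 libraries highest in gut transcripts, 2 of the 36 were called higher and 0 lower.

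Of 10 genes for peptide processing and neurosecretory fate, 2 were higher and 5 lower with TDP-43 under the mCherry hairpin, beside 19.2% and 18.3% of all genes. The prohormone convertase gene amon (-0.36 ± 0.07, adjusted p = 0.00184), the secretion factor gene Cadps (-0.33 ± 0.05, adjusted p = 2.89e-04) and the amidation enzyme gene Pal2 (-0.40 ± 0.08, adjusted p = 0.00281) fell. The dense-core vesicle protein gene IA-2 (0.19) and the carboxypeptidase gene svr (0.16) rose. Among TDP-43 flies the Atx2 hairpin raised Phm, the other amidation enzyme (0.25 ± 0.06, adjusted p = 0.0246), and none of the 10 was called lower. Phm was not called without the 2 libraries highest in gut transcripts. The largest change of the list there, that of dimm, just missed the threshold (-0.63 ± 0.20, adjusted p = 0.0523). With TDP-43, dimm was called lower under the Atx2 hairpin (-0.62 ± 0.20, adjusted p = 0.0412) but not under the mCherry hairpin (-0.38 ± 0.19, adjusted p = 0.141).

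**Figure D5:**
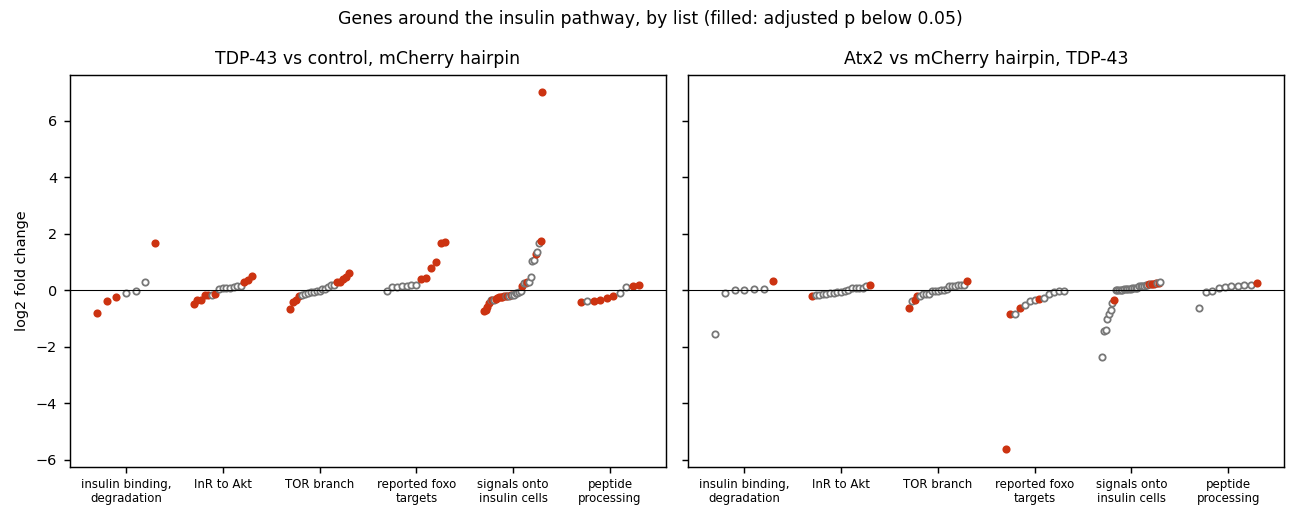
Log2 fold change (vertical axis) of each tested gene in 6 lists around the insulin pathway, sorted within each list, for TDP-43 against control with the mCherry hairpin and for the Atx2 hairpin against the mCherry hairpin among TDP-43 flies; filled points have an adjusted p below 0.05. Among reported foxo targets the filled points lie above 0 on the left (6 of 13) and below 0 on the right (4 of 13), and the lowest point on the right is tobi. Both panels use the TDP-43 mCherry libraries, with opposite sign.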

How the data were processed

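The authors deposited whole-number read counts per gene, without normalisation, for brains in 4 groups of 3 libraries. Build dm6, STAR 2.7.3a, DESeq2, SAMtools and Trim Galore are named in the submitters' processing notes, and per the labels' protocols the polyA kit was stranded. The sources used here do not say how reads were assigned to genes, so values of overlapping and antisense genes are uncertain. The labels call the libraries biological replicates. Each p-value weighs a contrast of group means against the spread between libraries within groups.

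Counts were filtered with filterByExpr (10738 of 17562 genes kept), scaled by TMM (factors 0.962 to 1.03) and tested in R 4.3.3 with edgeR 4.0.16's robust quasi-likelihood F-test, in one model with 4 group means and 8 residual degrees of freedom. P-values were Benjamini-Hochberg adjusted, with calls below 0.05 and no minimum fold. Named pathway genes are, per list, up to 4 called each way by smallest adjusted p in the first comparison and in that of hairpins among TDP-43 flies. The step was tested on simulated counts. The members and lists were chosen with earlier results of these data known.

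Same-numbered libraries deviated together, with every r over 0.1, between the 2 TDP-43 groups (0.208, 0.67 and 0.232) and between the 2 Atx2-hairpin groups (0.369, 0.434 and 0.178). Pairs of unlike number ran from -0.468 to 0.323 in the first case and from -0.411 to 0.0466 in the second. Between the TDP-43 groups, only the pair at 0.67 thus lay above all unlike pairs. The labels do not say what the numbers share. Alternatives were DESeq2 1.42.0 and its size factors, no filter, only the groups compared, a replicate block, and each library left out. Exon lengths and loci come from the dm6 annotation, which matched 17490 symbols.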

Additional observations from a re-analysis of the deposited data

How the results depend on the processing

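Ilp2 in 5 comparisons, InR in 4, Ilp5 in both TDP-43 comparisons and Ilp3 in its 3 falls kept their direction and call in all alternatives run. Of the 10 genes, 5 were called with TDP-43 under the mCherry hairpin, and 4 to 6 in every alternative. For the Atx2 hairpin among TDP-43 flies, 4 were called, against 2 in a fit of those groups only, 2 in that fit with the replicate block, 2 without the libraries highest in gut transcripts, and 2 to 6 with 1 library left out. DESeq2 called 2 for the hairpin among controls and 1 for the interaction, against 1 and 0. All genes called for the hairpin among TDP-43 flies numbered 1508, and 891, 490 and 480 in those first 3 alternatives and 746 to 1679 with 1 library left out. For the hairpin among controls they were 663 and 292 to 802. For the interaction they were 46, and 503 with DESeq2, 138 with the block, 7 without the gut-rich libraries and 10 to 74 with 1 left out. The replicate block in the fit of all groups changed no call of the 10 genes other than Thor's, and the pairing of numbers did not hold in the other comparisons. The alternatives without the gut-rich libraries and the blocked fits of 2 groups were added after the data were seen.

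Values near 0 that changed sign were all uncalled. Ilp6 for the hairpin among controls was 0.00908, and -0.00126 with DESeq2, -0.0013 with its size factors, -0.000901 without the gut-rich libraries and -0.133 to 0.105 with 1 library left out. Without the gut-rich libraries, the Ilp2 interaction was 0.0787 and ImpL2 for the hairpin among TDP-43 flies 0.101. With 1 library left out, the hairpin change among controls ran from -0.262 to 0.188 for Ilp7, -0.12 to 0.00692 for InR, -0.468 to 0.321 for Thor, -0.0236 to 0.0923 for chico and -0.0952 to 0.146 for foxo. Among TDP-43 flies it ran from -0.153 to 0.104 for ImpL2 and -0.0792 to 0.227 for foxo. The TDP-43 change under the Atx2 hairpin ran from -0.469 to 0.0597 for Ilp7 and -0.0833 to 0.0326 for chico. Against mCherry controls, TDP-43 Atx2-hairpin brains gave -0.515 to 0.0255 for Ilp7, -0.187 to 0.531 for Thor and -0.00823 to 0.028 for chico. The interaction ran from -0.0811 to 0.0519 for Ilp2, -0.0779 to 0.129 for Ilp5 and -0.0974 to 0.209 for foxo. The cause was not tested. Ilp7 had few counts, 2 to 19 per library.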
